A study of Rattus norvegicus with 54 samples.

Results

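Myh11 (ENSRNOG00000057880) and a second gene, ENSRNOG00000000500, were followed through primary rat cortical neurons that carried no virus, a GFP virus or an rMBD3 virus. They are 2 of the 30560 genes in the deposited count table, and both were among the 17172 genes with enough reads to be tested. They were chosen by their fitted levels, which were higher in GFP than in untransfected cultures and higher again in rMBD3 than in GFP cultures. The size of those 2 steps is therefore a description with no test, and the tests given are on time, medium, culture and neighbouring genes.

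The neurons came from the cortex of rat embryos at E18. Untransfected cultures received no virus. GFP cultures received an adeno-associated virus (AAV) with GFP under the SYN promoter, which is a promoter mainly active in neurons. The rMBD3 cultures received an AAV with the same promoter driving rMBD3 together with GFP, for Mbd3 overexpression. Each construct was kept in medium with magnesium or in magnesium-free medium, which the labels describe as epileptiform, and was collected at 2, 6 or 24 h after that change, giving 18 groups with 3 libraries each. Every group had 1 library from culture 1, 1 from culture 2 and 1 from culture 3. Untransfected and GFP cultures differed in virus and in GFP together, and the GFP and rMBD3 cultures differed in the construct, so the virus and its cargo cannot be told apart in the first step.

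Myh11 encodes the heavy chain of smooth muscle myosin, the motor protein of contractile smooth muscle, and is a standard marker of vascular smooth muscle cells and some pericytes rather than of neurons. MBD3 is a subunit of the NuRD complex, which couples nucleosome remodelling to histone deacetylation and acts mostly on promoters and enhancers. AAV is a small DNA virus used as a gene carrier that mostly stays outside the chromosomes. ENSRNOG00000000500 carries no gene name in the tables used here, so nothing is said of its function. The name Myh11 came with its identifier and position, and no other gene is named because no table used here paired the identifiers with symbols.

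On mRatBN7.2, Myh11 spans chr10:743685-838459 on the plus strand, with 6705 exonic bases in 43 exon blocks. ENSRNOG00000000500 spans chr20:6199182-6228584, also on the plus strand, with 4385 exonic bases in 23 exon blocks. Neither span overlapped another annotated gene, and reads were counted by strand. Libraries held 14448927 to 39691105 counted read pairs, with a median of 26121007, and mitochondrial genes took 1.38% to 4.90% of them. Myh11 had 62 to 737 read pairs per library. ENSRNOG00000000500 had 3 to 505, and the 3 came from untransfected libraries, so its untransfected level is the least precise value given here.

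Both genes were low for their length. Levels were read as counts-per-million (CPM). Divided by the kilobases of exon (CPM per kb), Myh11 averaged 0.728 in untransfected, 1.26 in GFP and 2.35 in rMBD3 libraries, which put it at percentile 23.3, 29.3 and 36.6 of tested genes. ENSRNOG00000000500 averaged 0.146, 0.532 and 2.54 CPM per kb, at percentile 9.13, 20.9 and 37.6. Per length, then, Myh11 was the higher of the pair without virus and with GFP, and the averages were close in rMBD3 cultures. In bulk RNA a change in the share of cells of a type and a change in RNA per cell cannot be told apart. Markers of smooth muscle, pericytes, glia and neurons were not analysed here, so neither the labelled cell type nor the part of non-neuronal cells was tested.

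The CPM values that follow are scaled for library composition. Over the 18 untransfected libraries, Myh11 had a lowest value of 2.85, a median of 5.02 and a highest value of 6.76 CPM. The 18 GFP libraries lay at 5.77, 8.53 and 14.03 CPM, and the 18 rMBD3 libraries at 10.3, 14.4 and 28.2 CPM. Pooled over conditions, the untransfected range overlapped the lower end of the GFP range, and the upper end of the GFP range overlapped rMBD3. Untransfected and rMBD3 libraries did not overlap. Since the gene was chosen by these steps, that is only a description, and the share of tested genes so separated was not counted. The means were 4.88 ± 1.17, 8.45 ± 1.83 and 15.7 ± 4.85 CPM (SD, n = 18). Fitted over all conditions, GFP was 0.81 ± 0.10 above untransfected (log2, SE), a 1.75-fold difference. The rMBD3 libraries were 0.90 ± 0.10 above GFP, a 1.86-fold difference, and 1.71 ± 0.11 above untransfected.

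ENSRNOG00000000500 had larger fitted steps. Its untransfected libraries had a lowest value of 0.0941, a median of 0.548 and a highest value of 1.78 CPM. The GFP libraries lay at 0.737, 2.11 and 6.34 CPM, and the rMBD3 libraries at 4.02, 8.67 and 22.05 CPM. As for Myh11, the neighbouring constructs overlapped when all conditions were pooled, and untransfected and rMBD3 libraries did not. This gene too was chosen by these steps. The means were 0.640 ± 0.430, 2.33 ± 1.30 and 11.1 ± 5.24 CPM (SD, n = 18). GFP was 1.95 ± 0.28 above untransfected (log2, SE), a 3.86-fold difference, and rMBD3 was 2.22 ± 0.27 above GFP, a 4.65-fold difference. The distance from untransfected to rMBD3 was 4.17 ± 0.30.

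**Figure D1:**
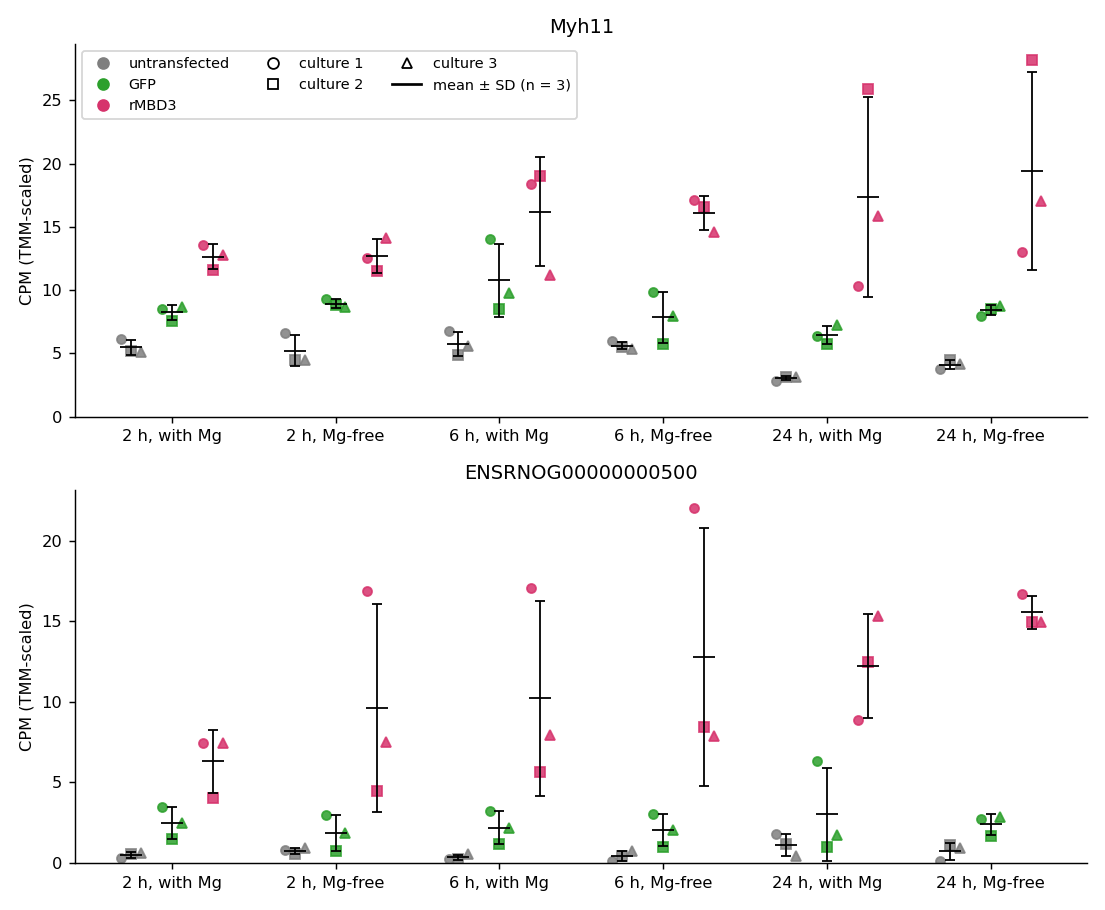
TMM-scaled CPM of Myh11 (top) and ENSRNOG00000000500 (bottom) in all 54 libraries, by time and medium on the x axis; colours are constructs, marker shapes are cultures, and bars are the mean ± SD of 3 libraries. The steps from untransfected to GFP to rMBD3 recur in each time and medium, and the spread among rMBD3 libraries reaches from 10.3 to 28.2 CPM for Myh11 at 24 h.

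Most genes did not take 2 such steps. Of the 17172 genes tested, 0.0874% were called higher and 0.21% lower in GFP than untransfected (edgeR's quasi-likelihood test, Benjamini-Hochberg adjusted p under 0.05). In rMBD3 against GFP 6.41% were called higher and 4.58% lower, and 0.0699%, or 12 genes, were higher in both steps. No gene (0.0%) was lower in both. Since the choice of Myh11 and ENSRNOG00000000500 rests on these contrasts, their place among the 12 is only a description. By total rise, ENSRNOG00000000500 was 2nd of the 12 and Myh11 was 9th. ENSRNOG00000000500 made the highest rMBD3 step of the 12 genes and the 3rd highest GFP step. Myh11 ranked 10th for the rMBD3 step and 11th for the GFP step. The list of 12 belongs to the main fit and rests on its GFP calls. Those numbered 51 in either direction, but 0 without culture 3 and 501 with culture number as a block per time point. The median of all tested genes was -0.01 for the GFP step and -0.03 for the rMBD3 step. The 2 steps share the GFP libraries, so a low GFP value would raise one and lower the other.

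Matched libraries of the same time, medium and culture form 18 trios. Myh11 was higher in GFP than in untransfected cells in 18 of 18 trios, and higher in rMBD3 than in GFP in 18 of 18. Among all tested genes, 0.0641% met the first of these counts and 1.76% the second. ENSRNOG00000000500 was higher with GFP in 17 of 18 trios and higher with rMBD3 in 18 of 18. At least 17 trios with GFP above untransfected were found for 0.21% of tested genes. The exception was culture 2 at 24 h with magnesium, where the untransfected library had 1.20 CPM and the GFP library 1.00 CPM. The trios are not independent of each other, because 3 cultures supplied all of them. Both genes were chosen by these steps, so high counts follow from that choice and are only a description.

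**Figure D2:**
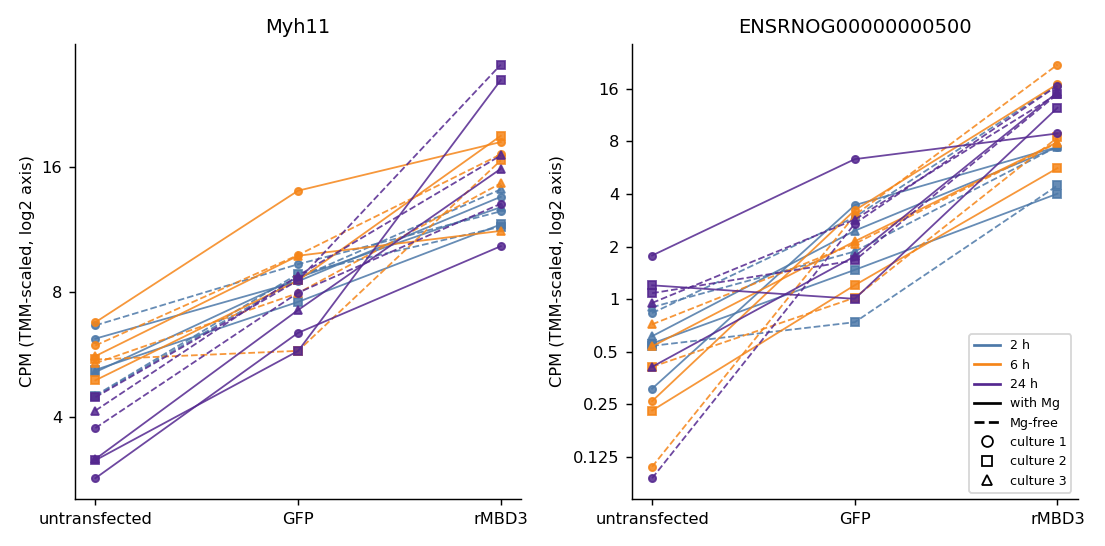
Lines join the untransfected, GFP and rMBD3 libraries of one time, medium and culture; the y axis is TMM-scaled CPM on a log2 scale, colour gives time, line style medium and marker shape culture. All 18 Myh11 lines rise at both steps, and 17 of the 18 ENSRNOG00000000500 lines do.

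Within single conditions the groups mostly stayed apart. For Myh11 at 2 h with magnesium, cultures 1, 2 and 3 read 6.18, 5.19 and 5.13 CPM untransfected, 8.49, 7.57 and 8.67 with GFP, and 13.6, 11.6 and 12.8 with rMBD3. At 2 h without magnesium they read 6.65, 4.51 and 4.49 untransfected, 9.33, 8.85 and 8.64 with GFP, and 12.5, 11.5 and 14.1 with rMBD3. No group overlapped the next one at 2 h. The widest spreads were both without magnesium, with an SD of 1.33 CPM for rMBD3 and 1.24 CPM for untransfected libraries. Relative to its mean, the untransfected group without magnesium spread most, and culture 1 was its highest.

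At 6 h with magnesium Myh11 read 6.76, 4.90 and 5.61 CPM untransfected, 14.03, 8.53 and 9.78 with GFP, and 18.4, 19.01 and 11.2 with rMBD3. Here GFP and rMBD3 overlapped, since culture 1 with GFP was above culture 3 with rMBD3. Without magnesium at 6 h the values were 5.95, 5.50 and 5.39 untransfected, 9.82, 5.77 and 7.95 with GFP, and 17.2, 16.6 and 14.6 with rMBD3. This time untransfected and GFP overlapped, through culture 2 with GFP, and rMBD3 stood apart.

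At 24 h with magnesium Myh11 read 2.85, 3.15 and 3.17 CPM untransfected, 6.38, 5.77 and 7.24 with GFP, and 10.3, 25.9 and 15.8 with rMBD3. Without magnesium the values were 3.76, 4.46 and 4.15 untransfected, 7.97, 8.53 and 8.76 with GFP, and 13.05, 28.2 and 17.05 with rMBD3. No groups overlapped at 24 h. Culture 2 with rMBD3 was far above the other cultures in both media, while the untransfected and GFP libraries stayed narrow. Over the 6 conditions, GFP lay above untransfected without overlap in 5, against 0.0175% of tested genes in at least 5. The rMBD3 libraries lay above GFP without overlap in 5, against 0.408%. Because the gene was chosen by these steps, these counts are only a description.

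ENSRNOG00000000500 at 2 h with magnesium read 0.307, 0.557 and 0.613 CPM untransfected, 3.45, 1.47 and 2.47 with GFP, and 7.45, 4.02 and 7.43 with rMBD3. At 2 h without magnesium it read 0.831, 0.540 and 0.898 untransfected, 2.95, 0.737 and 1.87 with GFP, and 16.9, 4.48 and 7.49 with rMBD3. Culture 2 was the lowest of the 3 cultures with either virus, and its GFP library fell inside the untransfected range without magnesium.

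At 6 h with magnesium ENSRNOG00000000500 read 0.260, 0.230 and 0.536 CPM untransfected, 3.23, 1.20 and 2.14 with GFP, and 17.1, 5.63 and 7.94 with rMBD3. Without magnesium it read 0.109, 0.409 and 0.717 untransfected, 3.02, 1.02 and 2.07 with GFP, and 22.05, 8.44 and 7.87 with rMBD3. All groups were apart at 6 h, and culture 1 was the highest with either virus in both media.

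At 24 h with magnesium ENSRNOG00000000500 read 1.78, 1.20 and 0.409 CPM untransfected, 6.34, 1.00 and 1.76 with GFP, and 8.89, 12.5 and 15.3 with rMBD3. Untransfected and GFP overlapped here, and culture 1 was the highest in both of these but the lowest with rMBD3. Without magnesium it read 0.0941, 1.08 and 0.951 untransfected, 2.71, 1.67 and 2.86 with GFP, and 16.7, 15.0 and 15.0 with rMBD3, and no groups overlapped. Over the 6 conditions, GFP was above untransfected without overlap in 4, against 0.0641% of tested genes in at least 4. The rMBD3 libraries were above GFP without overlap in 6, against 0.0932% of tested genes. These counts too follow from how the gene was chosen and are only a description.

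The size of the steps varied over conditions. For Myh11 the fitted GFP step ran from 0.48 ± 0.25 (6 h without magnesium) to 1.08 ± 0.26 (24 h with magnesium) on the log2 scale. Its rMBD3 step ran from 0.51 ± 0.25 (2 h without magnesium) to 1.42 ± 0.26 (24 h with magnesium). Both upper ends thus fell at 24 h in medium with magnesium. For ENSRNOG00000000500 the GFP step ran from 1.29 ± 0.68 (2 h without magnesium) to 2.66 ± 0.72 (6 h with magnesium). Its rMBD3 step ran from 1.35 ± 0.64 (2 h with magnesium) to 2.69 ± 0.67 (24 h without magnesium).

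Myh11 in untransfected libraries averaged 5.36 ± 0.88, 5.69 ± 0.63 and 3.59 ± 0.64 CPM at the 3 time points, 2, 6 and 24 h (SD, n = 6). GFP libraries averaged 8.59 ± 0.58, 9.31 ± 2.74 and 7.44 ± 1.20 CPM. The rMBD3 libraries averaged 12.7 ± 1.04, 16.2 ± 2.86 and 18.4 ± 7.14 CPM, so 24 h was the lowest time point without virus and the highest with rMBD3, where the spread was also widest.

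In untransfected cultures Myh11 fell from 2 to 24 h by 0.59 ± 0.18 on the log2 scale (SE; edgeR's quasi-likelihood test, adjusted p = 0.00739). From 6 to 24 h it fell by 0.68 ± 0.18 (adjusted p = 0.00958). The background is large, since 24.0% of tested genes fell and 21.1% rose from 2 to 24 h in untransfected cultures, and 7.52% fell and 6.23% rose from 6 to 24 h. Over the 8 alternative settings the adjusted p ran from 0.00177 to 0.187 for the first and from 0.00118 to 0.175 for the second. Without culture 1 the first fall was 0.30 and did not pass (adjusted p = 0.187), nor did it without culture 3 (adjusted p = 0.0748). The fall from 6 h did not pass without culture 2 (adjusted p = 0.0551) or without culture 3 (adjusted p = 0.175).

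In rMBD3 cultures Myh11 rose from 2 to 24 h by 0.53 ± 0.18 (edgeR's quasi-likelihood test, adjusted p = 0.0109), where 25.9% of tested genes rose and 27.6% fell. The rise was largest in culture 2, which went from 11.6 to 25.9 CPM with magnesium and from 11.5 to 28.2 CPM without. Culture 1 went from 13.6 to 10.3 and from 12.5 to 13.05 CPM, and culture 3 from 12.8 to 15.8 and from 14.1 to 17.05 CPM. Without culture 2 the difference was 0.11 (adjusted p = 0.711), and without culture 3 it was 0.60 (adjusted p = 0.103). Over 8 settings the adjusted p ran from 0.000398 to 0.711. In GFP cultures the difference between 24 and 2 h was -0.22 ± 0.18 (adjusted p = 0.315), where 24.6% of tested genes rose and 28.1% fell.

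Whether the construct changed the course over time was tested directly. The rMBD3 step of Myh11 was larger at 24 h than at 2 h by 0.75 ± 0.25 on the log2 scale. It did not pass after adjustment over all genes (edgeR's quasi-likelihood test, adjusted p = 0.488), and without culture 2 it was 0.31. In this contrast 0.00582% of genes were called higher and 0.0116% lower, 3 genes in all, and 1405 had an unadjusted p under 0.05. The GFP step differed by 0.37 ± 0.26 (adjusted p = 1.00). Added after the values by time had been seen, the whole distance from untransfected to rMBD3 was 1.13 ± 0.25 larger at 24 h than at 2 h (adjusted p = 0.119), a contrast in which 0.0116% of genes were called higher and 0.0349% lower. In 8 settings of that comparison the adjusted p ran from 0.00636 to 1.00 and passed in 3, namely with a replicate block per time point, with DESeq2 and without culture 1.

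Averaged over constructs, Myh11 fell by 0.27 ± 0.10 from 6 to 24 h (edgeR's quasi-likelihood test, adjusted p = 0.0273), where 26.3% of tested genes fell and 24.3% rose. Without culture 1 that difference was -0.03 (adjusted p = 0.839), and without culture 3 it was -0.36 (adjusted p = 0.0925). The difference between 24 and 2 h was -0.09 ± 0.10 (adjusted p = 0.435), and that between 6 and 2 h was 0.18 ± 0.10 (adjusted p = 0.153). For the first 34.2% of tested genes were called higher and 35.3% lower, and for the second 22.2% and 26.9%. These averages mix constructs. From 6 to 24 h untransfected cultures differed by -0.68 ± 0.18, GFP cultures by -0.32 ± 0.18 and rMBD3 cultures by 0.18 ± 0.18. Neither GFP nor rMBD3 was called there in edgeR's quasi-likelihood test (adjusted p = 0.193 and 0.452). Of tested genes, 10.6% and 14.8% were called higher and 15.5% and 17.8% lower. Without culture 2 the rMBD3 value was -0.14.

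ENSRNOG00000000500 had its highest averages at 24 h in each construct. Untransfected libraries averaged 0.624 ± 0.215, 0.377 ± 0.223 and 0.919 ± 0.597 CPM at 2, 6 and 24 h (SD, n = 6). GFP libraries averaged 2.16 ± 0.997, 2.12 ± 0.907 and 2.72 ± 1.90 CPM, and rMBD3 libraries 7.96 ± 4.65, 11.5 ± 6.51 and 13.9 ± 2.80 CPM. The time points overlapped in every construct, and GFP libraries at 24 h ran from 1.00 to 6.34 CPM. Averaged over constructs, 24 h exceeded 2 h by 0.57 ± 0.27 (edgeR's quasi-likelihood test, adjusted p = 0.0554) and 6 h by 0.62 ± 0.27 (adjusted p = 0.0521). Neither passed, against 34.2% and 24.3% of tested genes called higher.

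With the culture number as a replicate block the first difference was 0.63 (adjusted p = 0.0177) and the second 0.68 (adjusted p = 0.0155), and both passed. Over 8 settings the adjusted p ran from 0.00528 to 0.318 for the first and from 0.00804 to 0.351 for the second. Within rMBD3 cultures 24 h exceeded 2 h by 0.83 ± 0.44 (adjusted p = 0.115), or by 0.96 with the block (adjusted p = 0.0321), and by 1.33 without culture 1 (adjusted p = 0.00185). Without culture 2 it was 0.57 (adjusted p = 0.436), and without culture 3 it was 0.67 (adjusted p = 0.461). Over 8 settings that adjusted p ran from 0.00185 to 0.461. Within GFP cultures 24 h exceeded 2 h by 0.34 ± 0.46 (edgeR's quasi-likelihood test, adjusted p = 0.553). For untransfected cultures that difference was 0.55 ± 0.49 (adjusted p = 0.376). Within untransfected cultures 24 h exceeded 6 h by 1.24 ± 0.50 (adjusted p = 0.0945), or by 1.28 with the block (adjusted p = 0.0415, in a range over 8 settings from 0.0415 to 0.522).

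The steps of ENSRNOG00000000500 were not found to differ over time. Its rMBD3 step was 0.49 ± 0.64 larger at 24 h than at 2 h (edgeR's quasi-likelihood test, adjusted p = 0.865) and 0.57 ± 0.64 larger at 6 h than at 2 h (adjusted p = 1.00). The first of these was 1.15 without culture 1 and 0.21 without culture 2. The GFP step differed by -0.21 ± 0.66 (adjusted p = 1.00). These standard errors are wide, so differences of the size seen for Myh11 could not be told from 0 in this gene.

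Medium had small average differences in both genes. Averaged over time and construct, Myh11 differed by 0.06 ± 0.08 between magnesium-free and magnesium medium (edgeR's quasi-likelihood test, adjusted p = 0.868). ENSRNOG00000000500 differed by 0.07 ± 0.22 (adjusted p = 0.971). No gene of the 17172 was called in this comparison by edgeR, which is 0.0% in either direction, although 1565 had an unadjusted p under 0.05 and DESeq2 called 10. In rMBD3 cultures Myh11 averaged 15.4 ± 5.00 CPM with magnesium and 16.1 ± 4.98 without, and ENSRNOG00000000500 averaged 9.58 ± 4.42 and 12.7 ± 5.78 (SD, n = 9).

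At 24 h Myh11 was higher without magnesium in 9 of 9 library pairs of the same construct and culture, a count that 0.507% of tested genes reached. Its untransfected libraries averaged 3.06 ± 0.18 CPM with magnesium and 4.12 ± 0.35 without, and GFP libraries 6.46 ± 0.74 and 8.42 ± 0.41 (SD, n = 3). The rMBD3 libraries averaged 17.3 ± 7.90 and 19.4 ± 7.85 CPM and overlapped. The fitted difference at 24 h was 0.33 ± 0.15 (edgeR's quasi-likelihood test, adjusted p = 0.383) and did not pass, nor did any gene in edgeR, although 1988 had an unadjusted p under 0.05 and DESeq2 called 103. At 2 h 4 of 9 pairs were higher without magnesium, and at 6 h 2 of 9. For ENSRNOG00000000500 it was 5 of 9 pairs at 24 h, with a difference of -0.23 ± 0.37 (adjusted p = 0.844). No step of either gene was found to differ between media. For Myh11 the rMBD3 step differed by 0.04 ± 0.21 and the GFP step by -0.09 ± 0.21. For ENSRNOG00000000500 the rMBD3 step differed by 0.71 ± 0.52 and the GFP step by -0.34 ± 0.55, each with an adjusted p of 1.00 in edgeR's quasi-likelihood test. That rMBD3 value of 0.71 was 0.12 without culture 1 and 1.07 without culture 3.

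The 3 cultures differed in their level of ENSRNOG00000000500. With GFP, cultures 1, 2 and 3 averaged 3.62 ± 1.36, 1.18 ± 0.34 and 2.20 ± 0.41 CPM (SD, n = 6). With rMBD3 they averaged 14.8 ± 5.56, 8.33 ± 4.51 and 10.2 ± 3.86 CPM, and untransfected they averaged 0.563 ± 0.653, 0.669 ± 0.385 and 0.687 ± 0.210. In these means over all time points, the order 1, 3, 2 held with both viruses and not in untransfected libraries. It did not hold with rMBD3 at 24 h, where cultures 1, 2 and 3 averaged 12.8, 13.7 and 15.1 CPM over the media. A test of the culture number, added after these values had been seen, gave differences from culture 1 of -0.83 for culture 2 and -0.34 for culture 3 (edgeR's quasi-likelihood test, adjusted p = 0.0165). Cultures differed for 48.5% of tested genes by the same test.

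For Myh11 the cultures averaged 5.36 ± 1.64, 4.62 ± 0.82 and 4.66 ± 0.91 CPM untransfected, and 9.34 ± 2.59, 7.50 ± 1.41 and 8.51 ± 0.85 with GFP (SD, n = 6). With rMBD3 they averaged 14.2 ± 3.03, 18.8 ± 7.05 and 14.3 ± 2.09 CPM. Culture 2 was the lowest of the 3 without virus and with GFP, and the highest with rMBD3. Differences from culture 1 were -0.04 and -0.10 (adjusted p = 0.733). Within the 18 groups the coefficient of variation of Myh11 had a median of 10.6% and ran from 3.98% to 45.5%. That of ENSRNOG00000000500 had a median of 49.2% and ran from 6.50% to 95.2%.

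The cultures can be set beside ENSRNOG00000028956, the gene whose counts were far higher in rMBD3 libraries than elsewhere. Its rMBD3 libraries averaged 14535 ± 4031, 9323 ± 1099 and 4389 ± 2573 CPM at the 3 time points, earliest first (SD, n = 6), against 144 to 212 CPM on average in the other constructs. At 24 h culture 1 averaged 7681 CPM, culture 2 averaged 2751 and culture 3 averaged 2736. Among rMBD3 libraries at 24 h, Myh11 was thus lowest in the culture where this gene was highest. At 2 h the orders matched instead: ENSRNOG00000028956 averaged 16018, 10380 and 17206 CPM in cultures 1, 2 and 3, and Myh11 averaged 13.03, 11.6 and 13.5 CPM. At 6 h ENSRNOG00000028956 averaged 9131, 8735 and 10104 CPM in cultures 1, 2 and 3. Myh11 averaged 17.76, 17.80 and 12.92 CPM at 6 h, the reverse order, with cultures 1 and 2 nearly level. Across 54 libraries, the deviations from the group means of Myh11 and ENSRNOG00000028956 had a Pearson r of -0.45, and those of ENSRNOG00000000500 and ENSRNOG00000028956 one of -0.09. The libraries share cultures and depth, and the part of this gene in the levels of either was not tested.

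**Figure D3:**
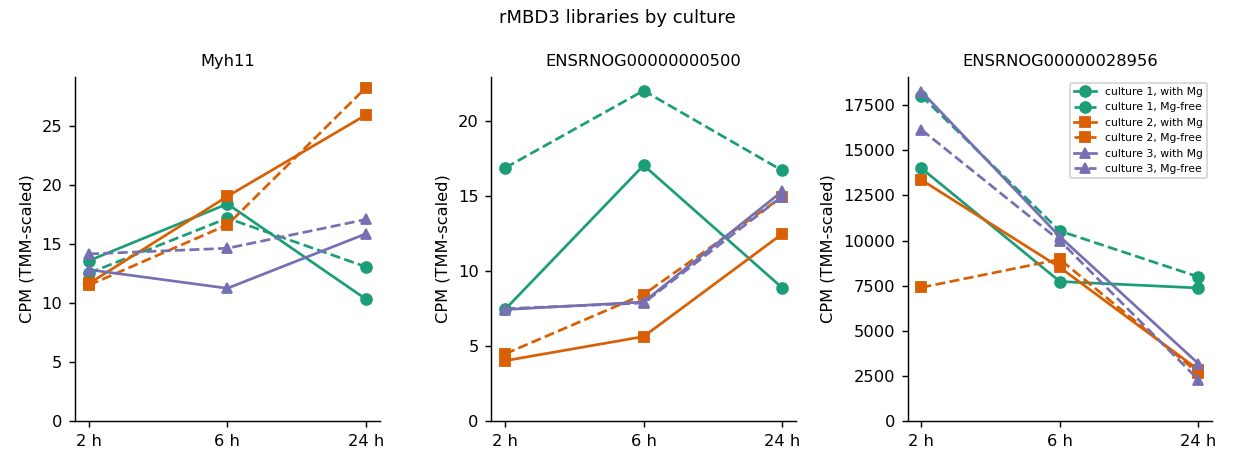
TMM-scaled CPM of Myh11, ENSRNOG00000000500 and ENSRNOG00000028956 in the 18 rMBD3 libraries at 2, 6 and 24 h (evenly spaced on the x axis); colours and markers are cultures, solid lines medium with magnesium and dashed lines magnesium-free medium. Culture 2 is highest for Myh11 at 24 h, culture 1 is highest for ENSRNOG00000000500 at 6 h, and ENSRNOG00000028956 is lower at 24 h than at 2 h in all 3 cultures.

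Over all 54 libraries Myh11 and ENSRNOG00000000500 moved together, with a Pearson r of 0.82 and a Spearman rho of 0.85 of log2 CPM. That correlation reflects the steps by which both were chosen. Around the group means the r was 0.23 and the rho 0.28. Of 12204 genes with a mean log2 CPM of at least 1, ENSRNOG00000000500 was the 3rd most correlated with Myh11 over all libraries and Myh11 the 4th for ENSRNOG00000000500. Around the group means they ranked 2722nd and 988th. Libraries of one culture and time share depth, composition and handling, and no p is attached to these values.

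The genes most like Myh11 over all libraries, beside ENSRNOG00000000500, were ENSRNOG00000015421 (r = 0.87), ENSRNOG00000029399 (0.84), ENSRNOG00000005277 (0.80) and ENSRNOG00000003515 (0.79). Those most like ENSRNOG00000000500, beside Myh11, were ENSRNOG00000025332 (0.84), ENSRNOG00000005277 (0.84), ENSRNOG00000001825 (0.83) and ENSRNOG00000002469 (0.82). ENSRNOG00000005277 was on both lists. It averaged 4.16 ± 2.07 CPM untransfected, 7.92 ± 3.94 with GFP and 21.5 ± 8.74 with rMBD3 (SD, n = 18). ENSRNOG00000015421 averaged 64.0 ± 16.7, 90.9 ± 23.4 and 169 ± 57.9 CPM, again in the same order of constructs. Of these 7 genes, 3 (ENSRNOG00000029399, ENSRNOG00000003515 and ENSRNOG00000025332) were among the 12, or 0.0699% of tested genes, called in both steps. The 7 were picked for likeness to 2 genes chosen by these steps. Their shared order of constructs follows from that choice and is only a description.

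Around the group means, the gene most like ENSRNOG00000000500 was again ENSRNOG00000025332 (r = 0.69), followed by ENSRNOG00000002469 (0.59), ENSRNOG00000001825 (0.58), ENSRNOG00000054896 (0.58) and ENSRNOG00000066042 (0.58). The first 3 of these were also on its list over all libraries. For Myh11 the list was a different one, led by ENSRNOG00000057116 (r = 0.72), ENSRNOG00000002860 (0.72), ENSRNOG00000000412 (0.71), ENSRNOG00000007304 (0.70) and ENSRNOG00000009980 (0.70). ENSRNOG00000057116 averaged 114 ± 18.03, 116 ± 15.0 and 110 ± 13.3 CPM in the 3 constructs, with no stepwise pattern. By Spearman correlation, 1 of these 5 for Myh11 and 2 of the 5 for ENSRNOG00000000500 remained among the 5 most correlated.

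No tested neighbour of either gene was called higher in both steps, as were only 0.0699% of all tested genes. Within 200 kb of Myh11 lay 7 genes, 6 of them tested, and none was called in either step. Over all tested genes 0.0874% were called higher and 0.21% lower for GFP, and 6.41% and 4.58% for rMBD3. With such shares, the lack of calls says little of these neighbours. Their log2 differences ran from -0.38 to 0.10 for GFP against untransfected and from -0.24 to 0.19 for rMBD3 against GFP. The nearest was ENSRNOG00000058007 at 1.33 kb on the minus strand, with 21.1 ± 12.1, 17.7 ± 12.2 and 19.7 ± 14.3 CPM in untransfected, GFP and rMBD3 libraries (SD, n = 18). Next came ENSRNOG00000053230 at 6.85 kb on the plus strand, with 19.9 ± 3.87, 18.3 ± 3.05 and 19.8 ± 4.67 CPM. These SDs pool time points and media, so they do not measure the difference between constructs. The fitted GFP step of ENSRNOG00000058007 was -0.38 ± 0.16 (edgeR's quasi-likelihood test, adjusted p = 0.397). Its rMBD3 step was 0.19 ± 0.16 (adjusted p = 0.501). Those of ENSRNOG00000053230 were -0.11 ± 0.09 (adjusted p = 0.818) and 0.11 ± 0.09 (adjusted p = 0.490).

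Within 200 kb of ENSRNOG00000000500 lay 9 tested genes. None was called for GFP against untransfected, beside a background of 0.0874% called higher and 0.21% lower. For rMBD3 against GFP 1 was called higher and 1 lower, beside a background of 6.41% and 4.58%. ENSRNOG00000000503, 70.2 kb away on the same strand, averaged 40.4 ± 7.88 CPM untransfected, 36.3 ± 7.33 with GFP and 55.7 ± 18.5 with rMBD3. It was 0.63 ± 0.12 higher with rMBD3 than with GFP (edgeR's quasi-likelihood test, adjusted p = 0.000537), and 0.38 higher without culture 1 (adjusted p = 0.0055, in a range over 9 settings from 1.83e-05 to 0.0342). Its GFP step was -0.17 ± 0.12 (adjusted p = 0.756), so it lacked the first step.

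ENSRNOG00000000499, 63.1 kb away on the minus strand, went the other way. It averaged 0.995 ± 0.785 CPM untransfected, 1.17 ± 0.875 with GFP and 0.493 ± 0.531 with rMBD3 (SD, n = 18). It was called lower with rMBD3 than with GFP (edgeR's quasi-likelihood test, adjusted p = 0.00122). At 24 h the 3 rMBD3 libraries without magnesium held 0 read pairs of it and the 3 with magnesium held 3 in all, against 33 and 58 in the matching GFP libraries. Those GFP libraries with magnesium ran from 0 to 38 read pairs. The lowest untransfected library at 6 h without magnesium also held 0. No fold change is given, because the fitted one averages over a group at 0. Without culture 3 the adjusted p was 0.0788, in a range over 9 settings from 1.71e-05 to 0.0788. The nearest gene to ENSRNOG00000000500, ENSRNOG00000000501 at 15.0 kb, read 43.3 ± 8.45, 42.9 ± 11.4 and 42.3 ± 7.54 CPM. Its fitted GFP and rMBD3 steps were -0.02 ± 0.09 and -0.02 ± 0.09 (log2, SE).

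**Figure D4:**
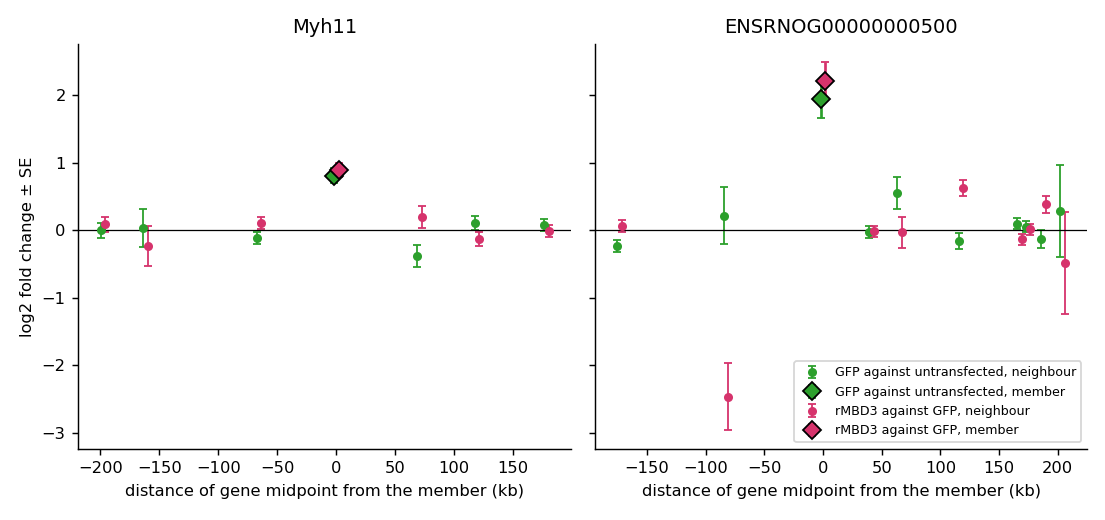
Log2 fold change ± SE of each tested gene within 200 kb of Myh11 (left) and ENSRNOG00000000500 (right) against the distance of its midpoint in kb; green is GFP against untransfected, red is rMBD3 against GFP, and diamonds are the 2 genes themselves. The diamonds lie above 0.8 on the left and near 2 on the right, and of the neighbours only ENSRNOG00000000503 at 0.63 and ENSRNOG00000000499, whose fitted value includes a group at 0, were called. The others run from -0.38 to 0.19 on the left and from -0.49 to 0.55 on the right.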

How the data were processed

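Per the labels' protocols, mRNA was sequenced with a strand-preserving kit. The deposited counts are read pairs per gene from featureCounts 2.0.0, per the file headers, with strand setting 2, a minimum mapping quality of 3 and the Ensembl release 105 annotation of mRatBN7.2. The labels' protocols name another build, rn6; coordinates here are those of the count table. STAR, Salmon, Trim Galore, SAMtools and DESeq2 are named in the submitters' processing notes, without versions. The authors' deposited log2 table was not used.

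Groups and culture numbers came from the labels. Counts of all 54 libraries were fitted with 18 group coefficients in edgeR 4.0.16 (R 4.3.3; TMM factors, filterByExpr with a minimum count of 10 and total of 15, robust quasi-likelihood), with Benjamini-Hochberg adjustment over 17172 genes per contrast at 0.05. The SE is the log2 fold change divided by the root of F. The fit was also run on simulated counts. These were drawn independently with no culture effect, so that run does not check the p-values where cultures differ. Likeness used log2 CPM with a prior count of 2. Alternatives were DESeq2 1.42.0, RLE factors, no filter, culture number as block, each culture left out, fits of 2 constructs, plain library totals and Spearman correlation. Same-numbered libraries deviated together (mean correlation 0.19). The -0.09 for different numbers is no separate control, because deviations from the mean of 3 libraries cancel out within a group. The number is the label's culture number, which is the source of the pairing. Nothing in the labels says more of how cultures were separated. The main fit had no culture term, so its p-values rest on the spread among the 3 libraries of each group, 1 from each numbered culture. They take the 54 libraries as independent, although 3 cultures supplied all of them.

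The genes and lists were chosen with earlier results of these data known. Genes named are the chosen 2, the 5 most correlated with each over all libraries and the 5 around group means, genes within 200 kb, and ENSRNOG00000028956, named after its values were seen. Lists of pathway and cell type genes were not analysed, because 0 identifiers matched the 47357 genes of the reference table (GRCr8). No sequences are shown, since none was matched.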

Additional observations from a re-analysis of the deposited data

How the results depend on the processing

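Over 9 alternatives, the 2 steps kept their direction in both genes: 0.77 to 0.86 and 0.70 to 1.03 for Myh11, and 1.34 to 2.28 and 2.10 to 2.37 for ENSRNOG00000000500 (GFP, then rMBD3; log2). None of the 36 group levels moved by more than 1 SD with plain library totals. With the replicate block, the pairing by culture number moved ENSRNOG00000000500 past the threshold for 24 against 2 h (0.63, and 0.63 where each time point had its own block, an alternative added once the data had been seen) and for 24 against 6 h (0.68 and 0.68), beside the 2 calls within constructs given above; it changed no other call of the 2 genes, except that a block per time point did so for Myh11 from untransfected to rMBD3 over time (1.06; DESeq2 1.07). The difference of ENSRNOG00000000500 between 24 and 2 h also passed with RLE factors (0.59, adjusted p = 0.0496) and DESeq2 (0.59, adjusted p = 0.0395). The difference of ENSRNOG00000000500 between 6 and 2 h with GFP, -0.01, became 0.02 with RLE factors and with DESeq2. The cause was not tested.

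Leaving out each culture in turn gave these ranges (log2). Myh11 ran from -0.26 to 0.14 for 24 against 2 h, from -0.45 to -0.03 for 24 against 6 h, from -0.03 to 0.11 for the rMBD3 step between media, from 0.31 to 0.92 for the rMBD3 step at 24 against 2 h, from -0.04 to 0.23 for 6 against 2 h with GFP and from -0.14 to 0.48 for 24 against 6 h with rMBD3. ENSRNOG00000000500 ran from 0.40 to 0.70 for 24 against 2 h, from -0.12 to 0.00097 for 6 against 2 h, from 0.42 to 0.73 for 24 against 6 h, from -0.01 to 0.18 for medium, from -0.52 to 0.37 for medium at 24 h, from -0.40 to 0.08 for the GFP step at 24 against 2 h, from 0.21 to 1.15 for the rMBD3 step at 24 against 2 h and from 0.12 to 1.07 between media, from -0.02 to 0.01 for 6 against 2 h with GFP, from -0.06 to 0.94 for 24 against 6 h with rMBD3, and from -0.09 to 0.75 for untransfected to rMBD3 over time.

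GFP against untransfected called 51 genes, but 230 with the block, 501 with a block per time point, 280 with DESeq2, 27 with 2 constructs only, and 0 to 25 without a culture. The rMBD3 step called 1886, but 2992, 4083, and as few as 309 without culture 3. The change of the rMBD3 step from 2 to 24 h called 3, but 6, 25, 11 with DESeq2 and 0 to 54 without a culture. For medium the count of 0 became 429 with a block per time point and 10 with DESeq2, and at 24 h it became 36, 1186, 103 with DESeq2, 1 with RLE factors and up to 176 without culture 1. From 6 to 24 h 5413 genes were called without culture 3.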
